A study of Mus musculus with 4 samples.

Results

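The genes described here encode the major proteins of mouse milk and of the membrane that wraps its fat droplets. They are the caseins Csn1s1, Csn1s2a, Csn1s2b, Csn2 and Csn3, the whey proteins Wap and Lalba, the mucin-like milk glycoprotein Glycam1, and the milk-fat globule proteins Btn1a1 and Xdh. They were chosen by gene symbol, and all 10 symbols had 1 row each among the 25806 genes listed. RNA was measured by sequencing in mammary glands of female mice carrying MMTV-PyMT, a tumour-inducing polyoma middle T transgene that the mouse mammary tumour virus promoter confines largely to mammary epithelium. There were 2 libraries from miR-9 knockout mice (a knockout of exon 1 of the microRNA miR-9) and 2 from littermates without that knockout, so both groups carry the transgene. All mice were of a mixed C57BL/6 background, and glands were taken at the hyperplastic stage, before carcinoma. The labels give no age, pregnancy or lactation state, no zygosity for the knockout mice, and not which of the 3 miR-9 genes was targeted. Separate animals are not stated for the libraries of a group, and p-values therefore rest on a spread that may be technical.

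Milk protein genes are made in alveolar luminal cells of the mammary gland. The pituitary hormone prolactin binds its receptor on these cells and, through the kinase JAK2, activates the transcription factor STAT5, which together with glucocorticoid receptor, C/EBP-beta, NF1 factors and ELF5 drives casein and whey protein transcription. In normal glands these messages begin to rise during pregnancy and reach their peak in lactation, and Csn3, Lalba, Wap and the other caseins do not all start at the same stage. Milk fat leaves the cell as droplets wrapped in the apical membrane, a step in which butyrophilin, the product of Btn1a1, and xanthine oxidoreductase, the product of Xdh, act together.

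The values are normalised read counts, which summed to between 15904798 and 16073229 in the knockout libraries and between 16378833 and 16418668 in the control libraries. The libraries held the markers of mammary luminal epithelium that the tissue label implies. Epcam, a surface protein of epithelial cells whose gene is named here after its values were seen, was at 14986 and 13576 in knockouts 1 and 2 and at 17731 and 16089 in controls 1 and 2. The alveolar transcription factor gene Elf5 was at 5232 and 5890 in the knockouts and at 6265 and 6408 in the controls. Together the 10 milk genes took 0.718% and 1.10% of the summed values in knockouts 1 and 2, against 1.14% and 1.20% in controls 1 and 2. The mean share was 0.911% ± 0.273 in the knockouts and 1.17% ± 0.0374 in the controls (SD, n = 2 each). The exact two-sided permutation test gave p = 0.33, the smallest p that 2 against 2 libraries allow. Nearly all of this was Csn3, which made up 91.6% and 94.5% of the 10 genes' values in the knockouts and 93.9% and 94.4% in the controls. Without Csn3 the share was 0.0605% ± 0.000326 in the knockouts and 0.0686% ± 0.00252 in the controls (SD, n = 2 each).

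Levels of different genes can be compared only per length, here as normalised read count per kilobase of the principal annotated transcript. On that scale Csn3 stood far above the rest, with a mean of 85360 per kilobase in the knockouts and 113200 in the controls, and Lalba came next with 3671 and 5041. In the knockouts Xdh at 934, Wap at 772, Btn1a1 at 452 and Csn1s1 at 317 followed. In the controls the order of these was Csn1s1 at 1478, Xdh at 843, Wap at 778 and Btn1a1 at 217. Wap ran from 361 to 1183 per kilobase in the knockouts and from 658 to 897 in the controls, so its levels overlapped those of Xdh in both groups and those of Btn1a1 and Csn1s1 in the knockouts. In the controls Csn1s1, at 1048 and 1907, did not overlap Xdh. Csn1s2a, Csn1s2b, Csn2 and Glycam1 lay between 3.27 and 240 per kilobase in every library, with Csn2, the main beta casein of milk, at 5.24 and 28.5 in the knockouts and at 42.5 and 20.2 in the controls. Per kilobase of the longer gene length listed in the files, Csn3 and Lalba kept the first places in both groups, and in the controls Wap at 425 and Xdh at 423 came before Csn1s1 at 334.

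**Figure D1:**
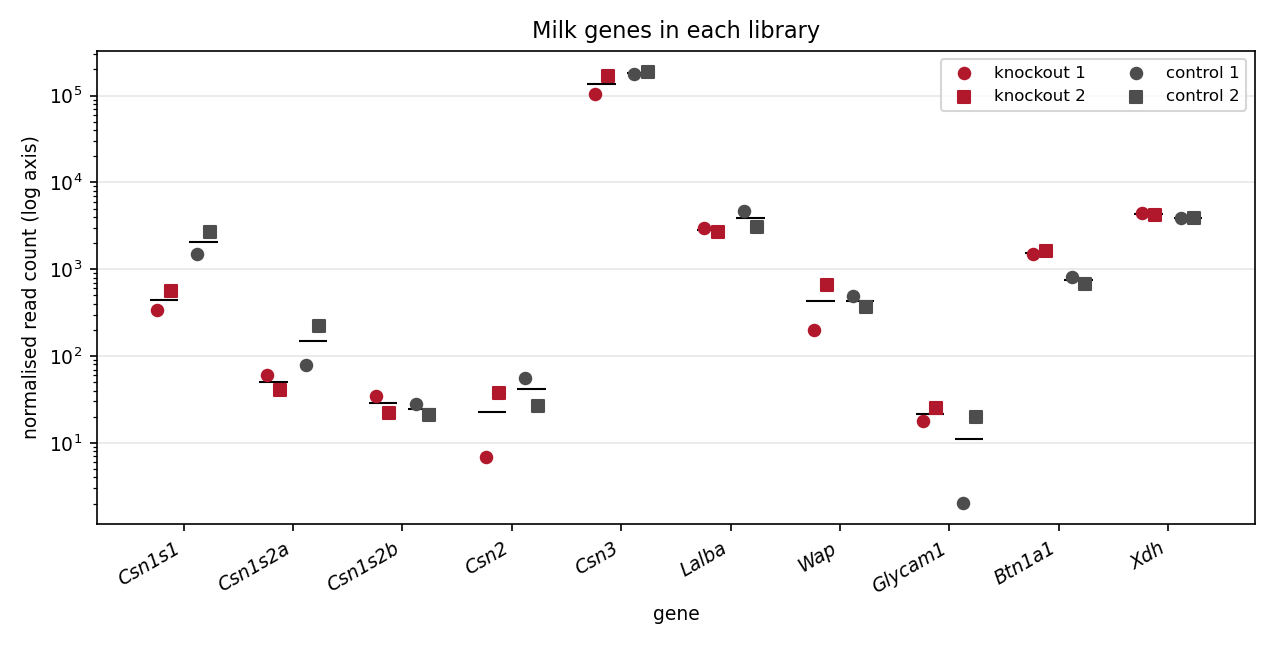
Normalised read count (log axis) of each milk gene in each library, with knockouts in red left of controls in grey and short lines at the group means. Csn3 lies at 104670 or more in every library. Groups do not overlap for Csn1s1, Csn1s2a, Csn3, Lalba, Btn1a1 and Xdh, and Csn2, Wap and Glycam1 are widely spread within a group.

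Alpha and beta caseins are the calcium-binding phosphoproteins that form the body of the casein micelle. Csn1s1, an alpha casein gene (ENSMUSG00000070702, GRCm38 chromosome 5, 87666208 to 87682578, plus strand), had 339 and 556 normalised reads in knockouts 1 and 2 and 1478 and 2691 in controls 1 and 2. Both knockouts lay well below both controls, and the knockout mean was 0.215 of the control mean. The log2 fold change, knockout over control on the log2(value + 1) scale, was -2.20 (SE 0.40, 95% interval -3.30 to -1.09). It did not pass the threshold of 0.05 after adjustment over all genes (limma adjusted p = 0.115, unadjusted p = 0.00515). Without control 1 the log2 fold change was -2.63, and without knockout 1, knockout 2 or control 2 it was -1.84, -2.55 and -1.77. Each of these fits leaves 1 library in a group, so they are given for size alone.

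Csn1s2a, an alpha-like casein gene once called gamma casein in the mouse (chromosome 5, 87774567 to 87788797), had 60.7 and 40.8 normalised reads in the knockouts and 78.1 and 221 in the controls. Both knockouts were below both controls, but the controls themselves differed 2.81-fold. The log2 fold change was -1.38 (SE 0.50, 95% interval -2.56 to -0.21, limma adjusted p = 0.221). It was -2.13 without control 1 and -0.64 without control 2. Its neighbour Csn1s2b, once called delta casein (chromosome 5, 87808082 to 87824426), had 34.8 and 22.3 in the knockouts and 27.7 and 20.9 in the controls, and the groups overlapped. Its log2 fold change of 0.20 had a 95% interval of -0.83 to 1.23 (limma adjusted p = 0.849), and turned to -0.09 with quantile normalisation and to -0.11 without knockout 1.

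Csn2, the beta casein gene (chromosome 5, 87692624 to 87699630, minus strand), had 6.96 and 37.9 normalised reads in knockouts 1 and 2 and 56.5 and 26.9 in controls 1 and 2. The groups overlapped, with knockout 1 lowest and knockout 2 above control 2. Its log2 fold change of -1.19 had a 95% interval of -3.05 to 0.68 (limma adjusted p = 0.463), and it was -0.04 without knockout 1 and -2.33 without knockout 2. The sum of these 4 casein genes was 442 and 657 in the knockouts and 1641 and 2960 in the controls, most of it Csn1s1.

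RefSeq promoter windows (GRCm38.p6, 250 bases before to 50 bases after the start site) were at hand for Csn1s1, Csn1s2a, Csn2, Wap, Lalba and Glycam1. Each was searched for TTCNNNGAA, the palindromic word that STAT5 binds, which reads the same on both strands. It was in 4 of these 6 windows, beside 8.3% of 32851 promoter windows of that length. The matched words were TTCTTAGAA in Csn1s1, TTCTTGGAA in Csn2, TTCTTAGAA in Csn1s2a and TTCCCAGAA in Glycam1. In Csn1s1 and Csn2 the word begins 100 and 93 bases before the start site and in Glycam1 145 bases before it. In Csn1s2a it begins 20 bases after the RefSeq start. The gene start listed with the values, 87774567, lies beyond the end of that window at 87774499, so the word precedes the listed start. The word was not found in the windows of Wap and Lalba. A match describes letters and is not a measured binding site, and RNA levels here differ widely among the genes that hold it. The windows of Csn1s1 (chr5:87665958-87666257, plus strand) and Csn2 (chr5:87699376-87699675, minus strand) are shown because these neighbouring genes hold the word at a like distance yet differ in level; capitals mark the match.
Csn1s1: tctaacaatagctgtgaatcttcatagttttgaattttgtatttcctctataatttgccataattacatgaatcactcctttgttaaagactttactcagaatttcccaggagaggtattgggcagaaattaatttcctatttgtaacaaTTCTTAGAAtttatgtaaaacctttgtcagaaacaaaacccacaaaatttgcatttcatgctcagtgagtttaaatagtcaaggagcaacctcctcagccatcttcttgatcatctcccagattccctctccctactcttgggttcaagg
Csn2: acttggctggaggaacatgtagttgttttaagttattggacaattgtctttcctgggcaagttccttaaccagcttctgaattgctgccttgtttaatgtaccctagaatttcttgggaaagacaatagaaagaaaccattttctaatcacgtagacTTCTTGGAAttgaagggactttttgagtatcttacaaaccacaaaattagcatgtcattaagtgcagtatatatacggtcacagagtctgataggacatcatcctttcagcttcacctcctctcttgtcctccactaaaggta

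Csn3 (ENSMUSG00000001622, chromosome 5, 87925579 to 87932665) encodes kappa casein, which coats the micelle surface and keeps it in suspension. It had 104670 and 167797 normalised reads in knockouts 1 and 2 and 175769 and 185462 in controls 1 and 2. By value among all genes it ranked at 4 and 2 in knockouts 1 and 2, and at 2 and 1 in controls 1 and 2. Both knockouts were below both controls, but knockout 2 came close to control 1 and the knockouts differed 1.60-fold. Its log2 fold change of -0.45 (SE 0.21) had a 95% interval of -0.97 to 0.08 and did not pass (limma adjusted p = 0.333). Without knockout 1 it was -0.11 and without knockout 2 it was -0.79, so the size moved with single knockout libraries. Csn1s1 was 0.00324 and 0.00331 of Csn3 in the knockouts and 0.00841 and 0.0145 of it in the controls.

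Whey proteins stay in solution when casein curdles. Lalba (ENSMUSG00000022991, chromosome 15, 98480400 to 98482721) encodes alpha-lactalbumin, the subunit that makes the galactosyltransferase B4galt1 produce lactose. It had 3010 and 2650 normalised reads in the knockouts and 4717 and 3057 in the controls, so that both knockouts lay below both controls, knockout 1 only just below control 2. The log2 fold change was -0.43 (SE 0.20, 95% interval -0.92 to 0.06, limma adjusted p = 0.327), with -0.11 without control 1 and -0.74 without control 2. Csn3 was 34.8 and 63.3 times Lalba in normalised reads in the knockouts and 37.3 and 60.7 times in the controls.

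Wap (ENSMUSG00000000381, chromosome 11, 6635482 to 6638637) encodes whey acidic protein, a cysteine-rich protein of rodent milk. It had 199 and 652 normalised reads in knockouts 1 and 2 and 494 and 363 in controls 1 and 2. The knockouts were the lowest and the highest of the 4 libraries and differed 3.26-fold. The group means were nearly equal, at 425 ± 320 in the knockouts and 428 ± 93.0 in the controls (SD, n = 2 each), and the 95% interval of the log2 fold change ran from -2.17 to 1.71 (limma adjusted p = 0.900). The direction was set by single libraries, with a log2 fold change of 0.62 without knockout 1 and -1.09 without knockout 2.

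Glycam1 (ENSMUSG00000022491, chromosome 15, 103562759 to 103565081) encodes a mucin-like glycoprotein that is secreted into milk and is also made by high endothelial venules of lymph nodes, where it carries ligands of the lymphocyte receptor L-selectin. It was near the floor, with 17.9 and 25.3 normalised reads in the knockouts and 2.05 and 19.9 in the controls. The groups overlapped, and control 1 alone was low. Its log2 fold change of 1.48 had a 95% interval of -0.60 to 3.56 (limma adjusted p = 0.415), and it was 0.09 without control 1. Of 9 high endothelial venule genes, 7 were listed and tested, 0 passed in limma (2 at an unadjusted p under 0.05), and their summed values were 2211 and 1963 in the knockouts and 1694 and 1174 in the controls. All 7 had a log2 fold change above 0, with a median of 0.59. Of them 3 were higher in both knockouts than in both controls, beside 25.5% of all genes tested. Podxl and Cd34, named after their values were seen, made up most of these sums. Podxl was at 1239 and 1137 in the knockouts and 973 and 805 in the controls. Cd34 was at 727 and 502 in the knockouts and 520 and 234 in the controls. Fut7, named likewise, was low, at 10.9 and 14.6 in the knockouts and 7.19 and 8.97 in the controls. Chst4 and Nkx2-3 were not listed. Also named after its values were seen, the chemokine gene Ccl21a, which has near-identical copies, was listed on a scaffold and on chromosome 4. On scaffold JH584294.1 it was at 54.7 and 118 in the knockouts and at 24.7 and 14.9 in the controls. Its log2 fold change there was 2.01, not past the threshold in limma. The chromosome 4 entry was at 0 and 3.88 in the knockouts and at 0 in both controls, and was not tested. The mucosal addressin gene Madcam1, named likewise, was at 3.98 and 0 in the knockouts and at 2.05 and 0 in the controls. A list of 12 lymphocyte genes, such as those of a lymph node, summed to 866 and 285 in the knockouts and to 162 and 131 in the controls, with 0 past the threshold in limma (6 at an unadjusted p under 0.05). The part of such cells in the Glycam1 values was not tested.

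Btn1a1 was the milk gene that rose. It encodes butyrophilin, a transmembrane protein of the apical surface of secretory cells and of the milk-fat globule (ENSMUSG00000000706, chromosome 13, 23456992 to 23465901). It had 1488 and 1605 normalised reads in knockouts 1 and 2 and 812 and 676 in controls 1 and 2. Both knockouts were well above both controls, with means of 1547 ± 82.8 in the knockouts and 744 ± 96.2 in the controls (SD, n = 2 each), a ratio of 2.08. The log2 fold change was 1.06 (SE 0.13, 95% interval 0.77 to 1.35, limma adjusted p = 0.0208). Leaving out 1 library kept it between 0.93 and 1.19, but the call ended without knockout 1 or knockout 2 (limma adjusted p = 0.732 and 0.577) and with a pseudocount of 0.1 (limma adjusted p = 0.0558). Without either knockout library no gene at all passed in limma, with 1384 and 1805 at an unadjusted p under 0.05, where the lone knockout was assumed to vary like the controls.

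Xdh (ENSMUSG00000024066, chromosome 17, 73883895 to 73950196) encodes xanthine oxidoreductase, the enzyme that forms uric acid in purine breakdown, which also binds butyrophilin at the globule membrane. It had 4424 and 4169 normalised reads in the knockouts and 3862 and 3896 in the controls, with both knockouts above both controls. The difference was small, a ratio of means of 1.11, and the log2 fold change of 0.15 (SE 0.10, 95% interval -0.08 to 0.37) did not pass (limma adjusted p = 0.455). Btn1a1 was therefore 0.336 and 0.385 of Xdh in normalised reads in the knockouts and 0.210 and 0.173 in the controls. In normalised reads, not per length, Btn1a1 was 4.39 and 2.89 times Csn1s1 in the knockouts and 0.549 and 0.251 times in the controls. Per kilobase of transcript, Btn1a1 was at 435 and 469 and Csn1s1 at 240 and 394 in the knockouts. In the controls Btn1a1 was at 237 and 197 per kilobase and Csn1s1 at 1048 and 1907. Neither ratio overlapped between the groups, and their differences were not tested. For the ratio to Csn1s1 the lack of overlap adds nothing. Both knockouts were above both controls for Btn1a1 and below them for Csn1s1, which fixes it in advance.

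**Figure D2:**
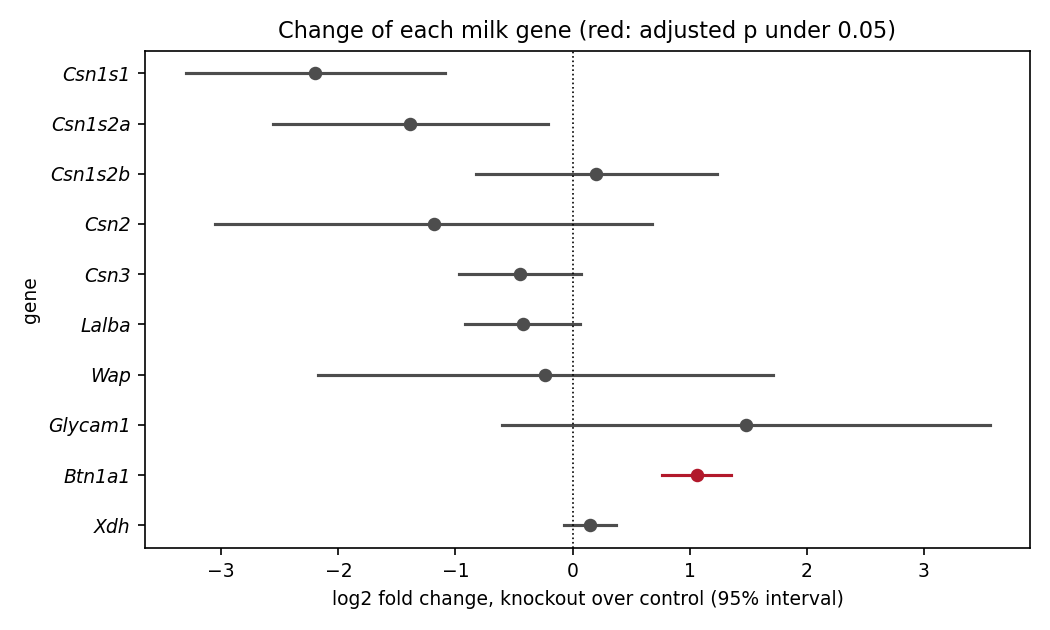
Log2 fold change of each milk gene, knockout over control, with its 95% interval from limma, where red marks an adjusted p under 0.05. Btn1a1 passes at 1.06, while the intervals of Csn1s1 and Csn1s2a lie below 0 without passing after adjustment over all genes.

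All 10 milk genes were tested, and 1 passed limma's adjusted p of 0.05, where 0.583% of the 22455 genes tested passed (131 genes, 93 or 0.414% higher and 38 or 0.169% lower). At an unadjusted p under 0.05 there were 3 of the 10, Btn1a1, Csn1s1 and Csn1s2a, and 4040 of all genes. The median log2 fold change of the 10 was -0.33, beside 0.00 over all genes tested, with 4 above 0 and 6 below. Groups did not overlap in 6 of the 10, with Btn1a1 and Xdh higher and Csn1s1, Csn1s2a, Csn3 and Lalba lower, where 51.2% of all genes tested had groups that did not overlap (25.5% with both knockouts higher and 25.6% with both lower). The median lay between -0.56 and -0.06 when 1 library was left out. Over the alternatives that kept all 4 libraries, the limma adjusted p ran from 0.0048 to 0.0558 for Btn1a1. It ran from 0.011 to 0.152 for Csn1s1 and from 0.164 to 0.249 for Csn1s2a.

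The milk genes also varied within a genotype. In the median gene the knockouts differed 1.17-fold and the controls 1.25-fold. Between the knockouts 7 milk genes differed more than that median, up to 4.88-fold for Csn2, with Csn1s1, Csn2, Csn3, Wap and Glycam1 lower in knockout 1 and Csn1s2a and Csn1s2b lower in knockout 2. Between the controls 7 differed more than the median, up to 6.85-fold for Glycam1. Of the 10, Xdh was the steadiest, at 1.06-fold between the knockouts and 1.01-fold between the controls, and Btn1a1 differed 1.08-fold and 1.20-fold.

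**Figure D3:**
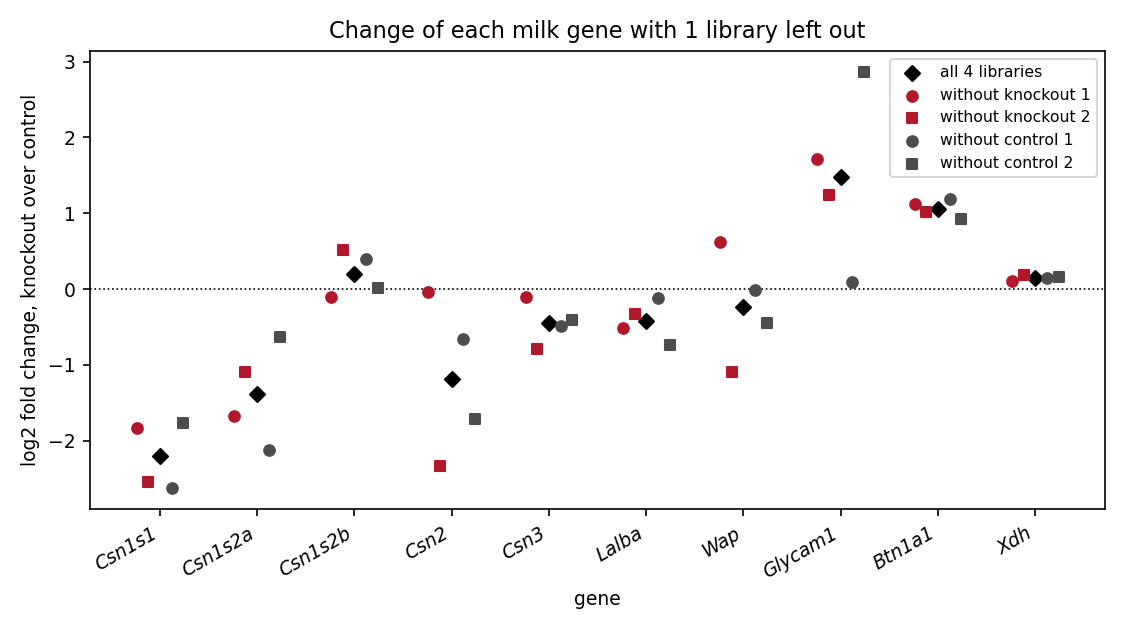
Log2 fold change of each milk gene, knockout over control, with all 4 libraries (black) and with 1 library left out (red for a knockout, grey for a control). Csn1s1 stays between -2.63 and -1.77 and Btn1a1 between 0.93 and 1.19, while Wap and Csn1s2b change sign.

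The casein genes lie together on chromosome 5, and their protein-coding neighbours within 250 kb were low here. Sult1d1, a sulphotransferase gene, had 20.9 and 16.5 normalised reads in the knockouts and 17.5 and 17.9 in the controls. Odam, which encodes an ameloblast-associated protein and sits between Csn1s2b and Csn3, had 25.9 and 28.2 in the knockouts and 21.6 and 33.9 in the controls (log2 fold change 0.00, SE 0.43, limma adjusted p = 0.998). Prr27 was at 0 in both knockouts and at 2.05 and 6.97 in the controls. Sult1e1 and Smr3a were at 4.97 or less in every library, and 2310003L06Rik was above 0 only in knockout 2, at 1.94. The salivary-type gene Smr2, at the far end beyond Csn3, was higher in both knockouts, with 54.7 and 43.7 in the knockouts and 7.19 and 8.97 in the controls, a log2 fold change of 2.47 (SE 0.45) that did not pass (limma adjusted p = 0.0603), though it did without control 1, with a pseudocount of 10, with no filter and against the luminal epithelium genes (limma adjusted p = 0.027, 0.0456, 0.0418 and 0.0209). No other listed gene overlapped a milk gene except a pseudogene inside Xdh at less than 1 normalised read.

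**Figure D4:**
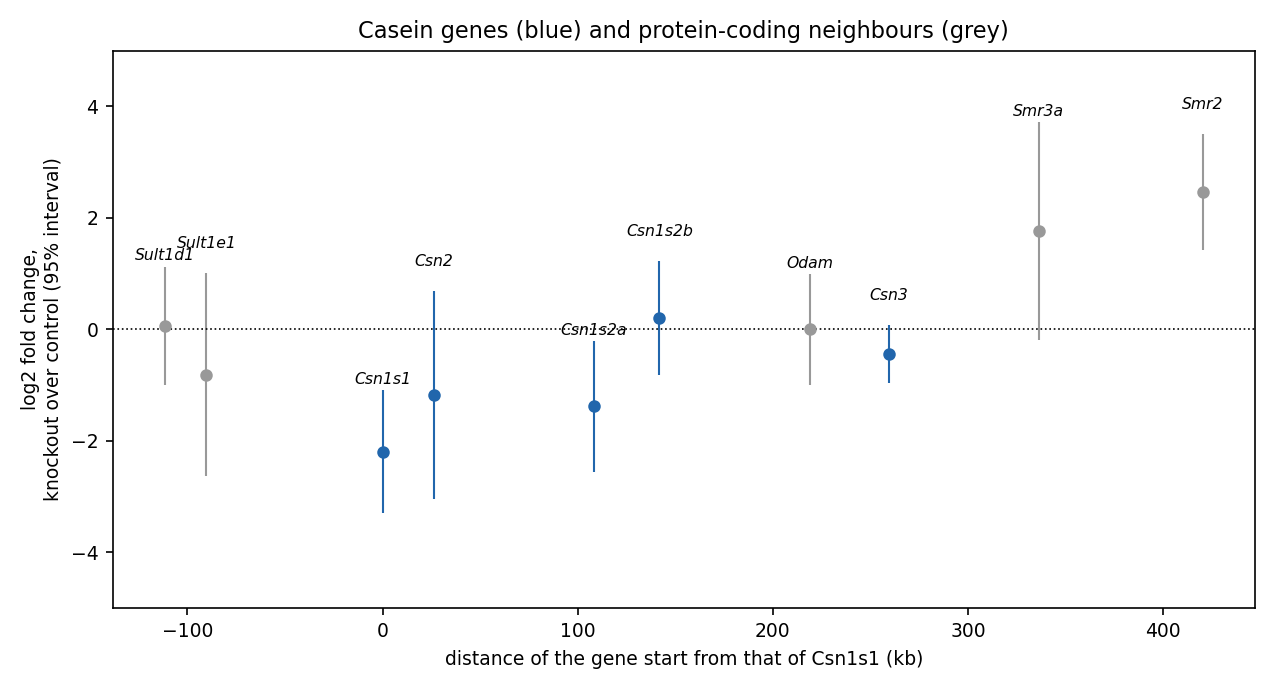
Log2 fold change with 95% interval for the casein genes (blue) and their protein-coding neighbours (grey), by distance of the gene start from that of Csn1s1 in kilobases. Csn1s1 at -2.20 and Csn1s2a at -1.38 lie below 0, Csn1s2b and Odam near 0, and Smr2 at 2.47 above it; Prr27, at 0 in both knockouts, is not drawn.

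Further genes of milk secretion were taken from lists by function, and of all genes tested 0.414% rose and 0.169% fell. Of 18 further genes of secreted milk proteins and the fat globule, 0 rose and 1 fell in limma, 7 lying above 0 in log2 fold change and 11 below, with a median of -0.05. The gene that fell was Spp1, which encodes osteopontin, a phosphoprotein of milk and also of macrophages, at 14859 and 15115 in the knockouts and 38329 and 42995 in the controls (log2 fold change -1.44, limma adjusted p = 0.00522). The other abundant genes of the list were Lcn2, an iron-siderophore binding protein, with a log2 fold change of -0.13, and Wfdc18, a small protease-inhibitor-like protein, with -0.24 (limma adjusted p = 0.588 and 0.449). Among globule proteins, named here after their values were seen, Mfge8 had -0.02, Plin2, the droplet coat protein, -0.26, Muc1 -0.48, Muc15 -0.68 and the fatty acid transporter Cd36 2.06, none past the threshold (limma adjusted p = 0.929, 0.243, 0.111, 0.110 and 0.292). Cd36 was at 1514 and 584 in knockouts 1 and 2 and at 351 and 143 in controls 1 and 2. The part of adipocytes in its values was not tested.

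Lactose synthesis gave 0 calls in limma among 11 genes (2 at an unadjusted p under 0.05), with a median of -0.07. B4galt1, the enzyme that Lalba modifies, had 2659 and 2401 in the knockouts and 3171 and 3288 in the controls, a log2 fold change of -0.35 (limma adjusted p = 0.14), and Hk1 and Ugp2, which supply the sugar precursors, had -0.06 and 0.05. Mineral transport genes had a median of -0.27 over 9 genes, 0 past the threshold in limma (3 at an unadjusted p under 0.05), with the claudin gene Cldn3 at -0.39, the Golgi calcium pump gene Atp2c1 at -0.15 and the phosphate transporter gene Slc20a1 at -0.83 (limma adjusted p = 0.0641 for Slc20a1). Lipid synthesis genes had a median of 0.29 over 16 genes, 10 above 0 and 6 below. Of these, 0 passed in limma (9 at an unadjusted p under 0.05). The desaturase genes Scd1 and Scd2 had 0.28 and -0.07 and the regulator Srebf1 0.29. The 16 genes summed to 94816 and 67769 in the knockouts and to 61831 and 69829 in the controls, so knockout 2 lay below control 2. The part of adipocytes in these values was not tested.

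In the prolactin and STAT5 list 0 of 16 genes passed in limma (5 at an unadjusted p under 0.05), 8 lying above 0 and 8 below, with a median of -0.03. The most abundant were Xbp1, a regulator of secretory capacity, at -0.36, Nfib, an NF1 factor, at -0.17 and Elf5 at -0.19. The genes that follow are named after their values were seen. The prolactin receptor gene Prlr had 4032 and 4976 in the knockouts and 2410 and 1460 in the controls. Its log2 fold change was 1.26 (limma adjusted p = 0.108), and 1.62 without control 1. Stat5a had 0.28 and the STAT5-induced inhibitor gene Cish 0.86 (limma adjusted p = 0.224 and 0.0985). Socs2, another STAT5-induced inhibitor gene, had -0.91, with 1215 and 1184 in the knockouts and 1495 and 3379 in the controls, and the C/EBP-beta gene Cebpb had -0.48 (limma adjusted p = 0.391 and 0.0849).

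**Figure D5:**
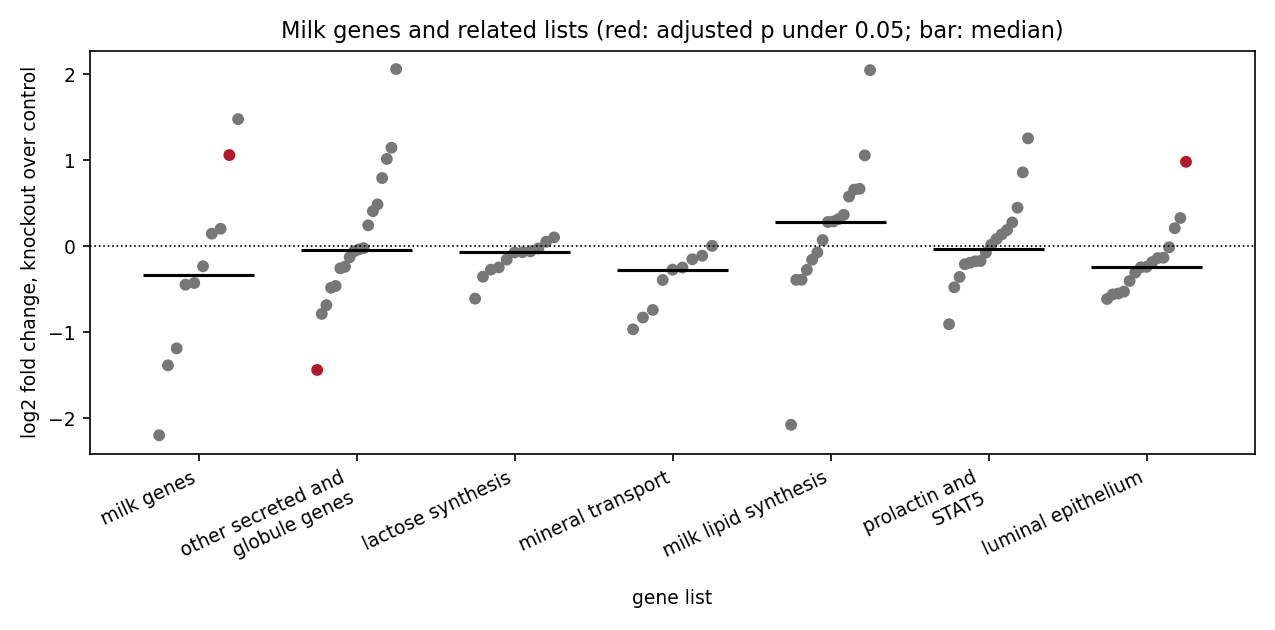
Log2 fold change, knockout over control, of each tested gene in the milk gene list, in lists of related milk functions and in the luminal epithelium list, with bars at the medians and red for an adjusted p under 0.05. The passing genes are Btn1a1 and Krt19, both higher, and Spp1, lower, and the list medians lie between -0.33 and 0.29.

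In whole glands, fewer secretory cells and less message per cell cannot be told apart. Of 15 luminal epithelium genes 12 had a log2 fold change below 0 and 3 above, with a median of -0.24, and their summed values were 109197 and 100393 in the knockouts and 112334 and 116295 in the controls. The keratin gene Krt19 rose (log2 fold change 0.98, limma adjusted p = 0.0351) and no other passed, Krt19 not passing with a pseudocount of 0.1 (limma adjusted p = 0.081) or without control 2, knockout 1 or knockout 2 (limma adjusted p = 0.0778, 0.732 and 0.551). Measured against the library mean of these luminal genes, a setting that moved the median of all genes by 0.16 on the log2 scale and gave 537 higher and 53 lower calls, Csn1s1 was at -2.04 (limma adjusted p = 0.124) and Btn1a1 at 1.22 (limma adjusted p = 0.0048). The 8 alveolar progenitor genes had a median of -0.11 and summed to 43307 and 42646 in the knockouts and 46244 and 49461 in the controls, with 0 past the threshold in limma (1 at an unadjusted p under 0.05).

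Other cell types also differed between libraries. Of 9 basal and myoepithelial genes 7 were higher in both knockouts, beside 25.5% of all genes tested, and 1 was lower in both. The 9 genes summed to 30436 and 34502 in the knockouts and to 19489 and 9492 in the controls. Among genes named after their values were seen, the actin gene Acta2 was the most abundant, with a log2 fold change of 1.44. The keratin genes Krt14, Krt5 and Krt17 had -0.46, 0.21 and 0.24, and Krt14 was the gene lower in both knockouts. The 10 adipocyte genes summed to 31173 and 10006 in the knockouts and to 13864 and 6368 in the controls, and 0 genes of either list passed in limma (4 basal and 3 adipocyte genes at an unadjusted p under 0.05). Of 14 salivary and lacrimal gland genes 8 were listed and 5 tested, and Prol1 rose (311 and 433 in the knockouts, 28.8 and 23.9 in the controls, limma adjusted p = 0.00538). Skeletal muscle genes summed to 45.8 and 56.3 in the knockouts and to 298 and 59.8 in the controls. The part of these cell types in the milk gene values was not tested.

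The 3 miR-9 genes share a main mature strand, and which was targeted is not given, so loss of that strand is not shown here. This microRNA acts on messages that pair with its seed. The seed is the bases in capitals in the strand below, shown because it defines the site searched for.
miR-9-5p: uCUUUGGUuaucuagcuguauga
The matching site ACCAAAG was sought in the 3' untranslated region of the principal transcript of each gene. None of the 10 milk genes held it, Btn1a1 included, beside 11.3% of 20732 protein-coding genes. The untranslated regions of the milk genes were short, with a median of 339 bases against 847 over all genes, and absence from this transcript says nothing of other transcripts or sites.

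Taken over the 4 libraries, the mean centred log2 profile of the 10 milk genes was -0.38 and 0.08 in knockouts 1 and 2 and 0.03 and 0.27 in controls 1 and 2. Among 11037 other protein-coding genes with a mean of at least 100, the nearest profiles by Euclidean distance were those of Hells, a chromatin remodelling helicase, at 0.0213, and of Cep112, Apool, Rpf2 and Haus2 at 0.0374 to 0.0464. None of these 5 passed in limma. Each milk gene, set against the mean of the other 9, lay at a distance from 0.277 for Csn3 to 2.80 for Glycam1. These distances are not comparable with those of the 5 genes, which were picked as the nearest of 11037.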

How the data were processed

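Per the labels' protocols, libraries were made with an Illumina TruSeq RNA kit from total RNA. The submitters' processing notes list Bowtie 0.12.2 and hg38, GRCm38 and mm10 without saying what each was used for. The read counter and strand setting are not given in the sources used here. The deposited values are a normalised signal, as the values themselves show: every value was a whole multiple of 1 step per library (0.971 to 1.03, within a tolerance of 1e-06), that is, reads divided by a library factor. Division by the step gives whole numbers in every library, but with steps this close to 1 they were not accepted here as recovered reads. No count-based test was therefore run, and no counting intervals are given. Fold changes are relative to the typical gene.

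Knockout was compared with control on log2(value + 1) in limma 3.58.1, run under R 4.3.3 with its trend and robust options. Genotype was the sole covariate, leaving 2 residual degrees of freedom, on genes with a value of at least 1 in at least 2 libraries. P-values were adjusted by the Benjamini-Hochberg method over all genes tested. The added 1 understates changes of low genes. Transcript lengths and 3' untranslated regions came from GENCODE M21 (GRCm38), and promoters and the microRNA from RefSeq (GRCm38.p6). The members, lists and tests were chosen with earlier results of these data known. Named genes were all members, list genes past the threshold, the 3 most abundant tested genes of each milk-function list, protein-coding neighbours within 250 kb of the caseins and the 5 genes with the nearest profile; others are named as chosen after their values were seen. Alternatives were the pseudocount, the filter, scaling, leaving out each library and a replicate block; for non-member genes they were added after the data were seen.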

Additional observations from a re-analysis of the deposited data

How the results depend on the processing

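Among the 10 milk genes, 1 passed in limma, and this count was 0 with a pseudocount of 0.1, 2 with the replicate block and between 0 and 3 with 1 library left out. Over all genes, 131 passed (93 higher, 38 lower), against 33 with a pseudocount of 0.1 (20 higher, 13 lower), 257 with a pseudocount of 10, 332 with no filter, 257 with quantile normalisation, 590 against the luminal epithelium genes, 367 with the replicate block (303 higher, 64 lower), and between 0 and 2361 with 1 library left out. The cause of these differences was not tested. The replicate numbers in the titles are not stated to mark a shared litter or day, and same-numbered libraries deviated together at r = 0.118 across genes, so the block is only a check; with it Csn1s1 passed (limma adjusted p = 0.011) and Btn1a1 stayed past the threshold (limma adjusted p = 0.031). The median log2 fold change of the milk genes was -0.33 and ranged from -0.56 to -0.06 with 1 library left out. The difference in their share of the library total was -0.258 percentage points, -0.00813 without Csn3, and between -0.452 and -0.0653 with 1 library left out. Of the single genes, Csn1s2b turned to -0.0872 with quantile normalisation and ran from -0.105 to 0.513 with 1 library left out, being below 0 without knockout 1, and Wap ran from -1.09 to 0.621, being above 0 without knockout 1; the other 8 kept their direction under all 11 alternatives. With 1 library left out, the log2 fold change of Csn2 ran from -2.33 to -0.04 and that of Glycam1 from 0.09 to 2.87. The planned test on whole reads was not run.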
